A study of Mus musculus with 24 samples.

Results

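Matrix metalloproteinases (MMPs) and their inhibitors were followed in the lungs of 24 mice through 9 genes picked by name: Mmp9, Mmp11, Mmp14, Mmp16, Mmp19, Mmp28, Adamts4, Timp2 and Timp3. All 9 were measured among 13499 genes, each by a single probe set that carried no other gene's symbol. Total RNA of the right lobe had been hybridised to whole-transcript arrays, and 17 of the mice carried a TGF-β1 transgene (TG) while 7 were wild type (WT). Of C57BL/6J there were 2 TG and 2 WT mice, and of each of 5 more strains (A/J, 129, AKR/J, C3H and BALB/cJ) there were 3 TG mice and 1 WT mouse. Both genotypes drank doxycycline, the drug that turns the transgene on, for 2 weeks, so WT mice shared the drug and differed by the transgene. The sources used here do not give the promoter that drives the transgene or the age and sex of the mice. Strains prone to fibrosis, by the series design, are AKR/J, C57BL/6J and A/J, and C3H, 129 and BALB/cJ are called resistant. A numeric fibrosis code in the labels has a key that reads in reverse, and under it the sign of each prone minus resistant value turns. An emphysema label is set for AKR/J and BALB/cJ, its absence for 129 and C3H, and neither for A/J and C57BL/6J.

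MMPs are zinc-dependent proteases, made as inactive precursors, that cut collagens, fibronectin, proteoglycans and cell-surface proteins. TIMPs bind their active site and block them, and the related ADAMTS proteases cut proteoglycans of the matrix. In fibrotic lung, matrix is both laid down and cut, and the balance of these enzymes and inhibitors is part of how collagen is turned over.

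Array medians lay between 7.759 and 7.835 on the deposited log2 scale, and no further scaling was applied. Markers of alveolar type 2 cells, which define lung tissue, gave a summed level of 15.75 to 16.21 (log2 of the summed linear intensity of 7 genes) across the 24 mice. A few mice stood apart. The first TG mouse of strain 129 had a summed neutrophil marker level of 13.35, against 10.05 to 11.39 in the other TG mice and 10.43 to 11.15 in WT mice. Tests of Mmp9 are given with and without it. The BALB/cJ WT mouse, the only one of its strain, had a summed platelet marker level of 13.30 (6 of 8 markers measured), against 10.77 to 11.58 in the other 23 mice. Without it the same 6 members were called over all strains (limma), and its part in the BALB/cJ values was not tested. The AKR/J WT mouse stood above the other WT mice in Timp3, as given with that gene. In whole lung, fewer cells of a type and less RNA per cell cannot be told apart. The labels describe the mice of a group as separate samples and nothing more, so p-values measure the spread between these samples.

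Windows before the start of 5 member genes were held in the RefSeq promoter table (GRCm38.p6), those of Mmp11, Mmp14, Mmp28, Timp2 and Timp3. The windows of Mmp11 and Mmp14, which rose together in TG lung, and of Mmp28, which fell, are shown from 250 bases before the start up to the start, 5′ to 3′ on the strand of the gene. Capitals mark GGGCGG on either strand, the GC box bound by Sp1, and would also mark TGANTCA (AP-1) and GTCTAGAC (the Smad palindrome) had either been found. Mmp11 lies on the minus strand at chr10:75932503-75932752, Mmp14 on the plus strand at chr14:54431348-54431597, and Mmp28 on the minus strand at chr11:83463041-83463290.
Mmp11: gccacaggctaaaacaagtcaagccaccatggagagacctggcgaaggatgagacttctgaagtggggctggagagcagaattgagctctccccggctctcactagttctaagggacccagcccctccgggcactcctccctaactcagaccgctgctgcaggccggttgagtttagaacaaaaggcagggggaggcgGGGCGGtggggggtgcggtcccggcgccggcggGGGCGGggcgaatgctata
Mmp14: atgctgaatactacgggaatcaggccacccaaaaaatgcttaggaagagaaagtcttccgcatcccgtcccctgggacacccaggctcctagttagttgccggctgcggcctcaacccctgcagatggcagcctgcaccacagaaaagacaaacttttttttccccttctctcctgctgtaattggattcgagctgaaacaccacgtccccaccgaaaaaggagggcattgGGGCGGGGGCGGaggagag
Mmp28: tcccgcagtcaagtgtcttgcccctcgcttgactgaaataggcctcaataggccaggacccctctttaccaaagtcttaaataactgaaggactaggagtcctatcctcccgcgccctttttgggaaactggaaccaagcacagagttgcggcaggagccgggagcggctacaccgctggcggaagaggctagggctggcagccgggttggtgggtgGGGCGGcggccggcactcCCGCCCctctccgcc
Mmp11, Mmp14 and Mmp28 each held 2 GC boxes, which adjoin in Mmp14 and lie on opposite strands in Mmp28, and the windows of Timp2 and Timp3 held 1 each. Over 32851 promoter windows of the same length, 32.7% held a GC box. Neither the AP-1 letters (in 6.7% of all windows) nor the Smad palindrome (in 0.2%) occurred in any of the 5. The shorter Smad motif CAGAC, present in 42.2% of windows, occurred in Mmp11 alone among the 5 and is not in capitals. The 5 windows were 55.2% to 68.0% G and C, above the median window of 52.4%. The 3 windows shown had the same counts of the GC box, AP-1 and palindrome letters, but not of CAGAC. Any link of these letters to the rise or fall of a gene was not tested.

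In TG against WT mice over all strains, 5 of the 9 genes rose and 1 fell at an adjusted p under 0.05 (limma, 17 TG and 7 WT mice, strain as a fixed effect, adjusted over 13499 genes). Of all genes tested, 26.7% were called in either direction, 13.2% higher and 13.5% lower. Mmp14, Mmp19, Adamts4, Mmp11 and Timp2 were higher, Mmp28 was lower, and Mmp9, Mmp16 and Timp3 did not pass. The median difference of the 9 was 0.108 on the log2 scale, against -0.001 over all genes. Since the 9 were chosen with earlier results of these data known, setting them beside all genes is a description and not a test. Among all genes, 4.02% had every TG mouse above every WT mouse of its own strain and 3.68% had every TG mouse below. Mmp14 and Mmp19 met the first of these, with 17 of 17 TG mice above. Shares of genes with 14, 15 or 16 of 17 TG mice on one side were not counted. A single WT mouse of a strain can also lie outside its 3 TG mice by chance.

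**Figure D1:**
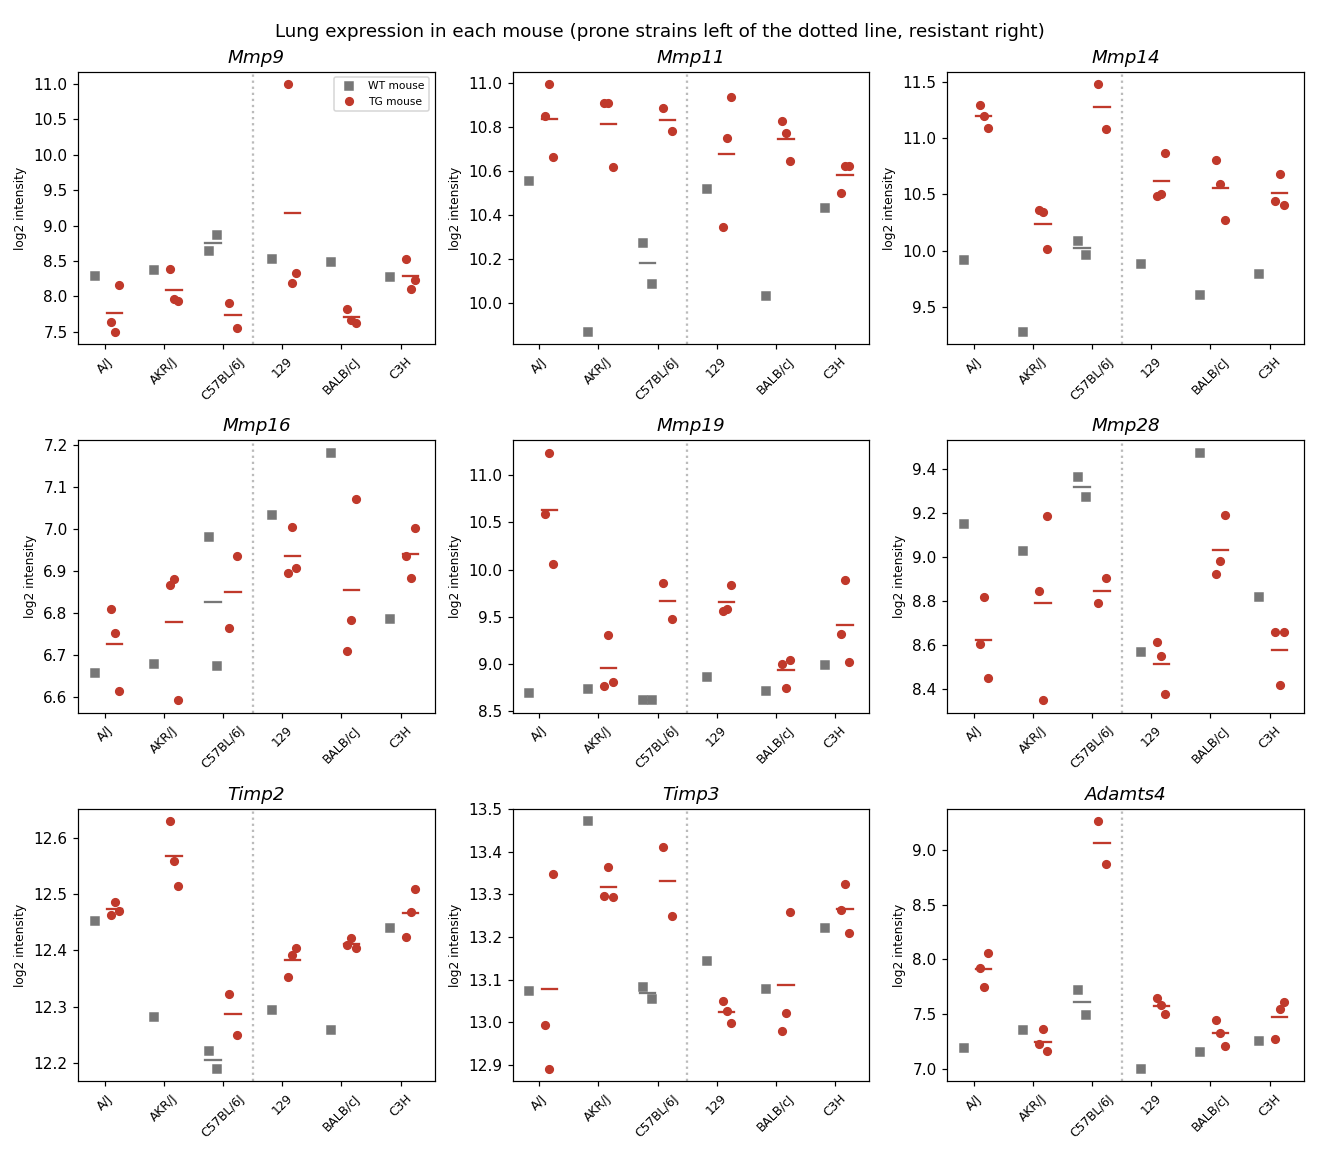
Log2 intensity of each of the 9 genes (y axis, a scale of its own per panel) in each of the 24 mice by strain, with WT mice as grey squares, TG mice as red circles and short lines at group means of 2 or more mice. Prone strains lie left of the dotted line. All TG circles of Mmp14 and Mmp19 lie above the WT squares of their strain, Adamts4 is highest in both C57BL/6J TG mice, and a single 129 TG mouse is at 10.99 for Mmp9.

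Mmp14 encodes a collagenase anchored in the cell membrane, which also activates the secreted precursor of MMP2. Its level ran from 9.28 to 10.09 in the 7 WT mice, with a median of 9.88, and from 10.01 to 11.48 in the 17 TG mice, with a median of 10.60. The lowest TG mouse, of AKR/J, was under the highest WT mouse, of C57BL/6J, but within each strain the genotypes were apart. Mmp14 was 2.00-fold higher in TG mice (0.999 ± 0.086 log2, SE, limma adjusted p = 3.3e-08). An exact permutation of genotype within strain gave a two-sided p of 0.00016, the smallest that 6144 arrangements can give.

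By strain, A/J had Mmp14 at 9.92 in its WT mouse and at 11.30, 11.20 and 11.09 in its TG mice. C57BL/6J was at 10.09 and 9.96 in WT and at 11.48 and 11.08 in TG mice, and AKR/J at 9.28 in WT and 10.36, 10.34 and 10.01 in TG mice. These are the 3 prone strains, and TG mice of A/J and C57BL/6J were all above those of every other strain. In 129 the WT mouse had 9.88 and the TG mice 10.48, 10.51 and 10.87. BALB/cJ had 9.61 against 10.80, 10.60 and 10.27, and C3H had 9.79 against 10.44, 10.68 and 10.41. Every strain thus moved the same way for this gene. The rise passed the test in A/J (1.277 ± 0.203 log2, limma adjusted p = 0.00053), C57BL/6J (1.259 ± 0.175, adjusted p = 0.00015), AKR/J (0.959 ± 0.203, adjusted p = 0.019) and BALB/cJ (0.950 ± 0.203, adjusted p = 0.019). In 129 (0.742, adjusted p = 0.058) and C3H (0.717, adjusted p = 0.15) it did not. Whether the rise depended on strain was tested directly and did not pass (limma F test, adjusted p = 0.62). The AKR/J call of Mmp14 was lost without its first or second TG mouse (highest adjusted p = 0.059), and the BALB/cJ call without its first (0.065).

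Mmp19, a secreted protease of basement membrane and cell-surface substrates, had a narrow range in WT mice, from 8.61 to 8.99 with a median of 8.71. In TG mice it spread from 8.74 to 11.24 with a median of 9.48. The A/J WT mouse had 8.69 and its TG mice 10.59, 11.24 and 10.06. These 3 mice were the highest of all 24. C57BL/6J TG mice had 9.86 and 9.48 against 8.62 and 8.61 in WT, and 129 TG mice had 9.56, 9.59 and 9.83 against 8.86. C3H TG mice had 9.31, 9.89 and 9.01 against 8.99. AKR/J TG mice had 8.76, 9.31 and 8.80 against 8.73, so that 1 of them was above every WT mouse of any strain and the others were not. BALB/cJ TG mice had 8.999, 8.74 and 9.04 against 8.71. Over all strains Mmp19 was 1.73-fold higher (0.790 ± 0.177 log2, limma adjusted p = 0.0019, exact permutation p = 0.00016). In A/J the difference was 1.943 ± 0.348, or 3.85-fold (limma adjusted p = 0.0012), and in C57BL/6J 1.055 ± 0.301 (adjusted p = 0.026). The C57BL/6J call of Mmp19 was lost without either WT mouse or without the first TG mouse of that strain (highest adjusted p = 0.19). The dependence of the effect on strain did not pass the test (adjusted p = 0.23).

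Markers of interstitial macrophages and monocytes were highest in TG mice of A/J and C57BL/6J, the strains with the highest mean TG levels of Mmp14 and Mmp19. Of 12 such genes 8 were measured, and 5 rose and 1 fell in TG mice (limma, adjusted p under 0.05, 13.2% and 13.5% of all genes). Those that rose were Ms4a7 (1.039 ± 0.123 log2), the complement subunit genes C1qc (0.974 ± 0.127), C1qb (0.859 ± 0.110) and C1qa (0.758 ± 0.097), and Cd68 (0.323 ± 0.097). Mertk, which encodes a receptor for the uptake of dead cells, fell by 0.50 ± 0.084. The summed level of the 8 was 13.86 to 14.05 in A/J TG mice and 13.55 to 13.70 in C57BL/6J TG mice, against 12.98 to 13.38 in the other TG mice and 12.91 to 13.20 in WT mice. In AKR/J, where Mmp14 rose, that level was 12.97 in the WT mouse and 13.04, 13.08 and 12.98 in TG mice. In 129 it was 12.91 in the WT mouse and 13.37, 13.09 and 13.24 in TG mice. The mean TG level of Mmp19 in 129 (9.659) did not differ from that in C57BL/6J (9.667) beyond their spread. Alveolar macrophage markers (6 of 12 measured) summed to 12.80 to 13.48 in TG and 13.17 to 13.55 in WT mice. Fibroblast markers (11 of 12 measured) summed to 14.87 to 15.14 in TG and 14.88 to 15.16 in WT mice, with 3 members called higher and 3 lower. Endothelial markers were lower in TG mice for 8 of 9 measured, with a summed level of 14.79 to 14.98 in A/J and C57BL/6J TG mice, 15.06 to 15.34 in the other TG mice and 15.30 to 15.55 in WT mice. Heart muscle markers were lower for 6 of 7 (12.66 to 14.14 in TG and 13.73 to 14.28 in WT mice), adipose markers for 2 of 3, and platelet markers were lower for 3 and higher for 1 of 6. The part of these cells in the members' values was not tested.

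Mmp11, stromelysin 3, is a secreted protease made by stromal cells and activated inside them by furin. It ran from 9.87 to 10.56 in WT mice (median 10.27) and from 10.35 to 10.99 in TG mice (median 10.77), and in 16 of 17 TG mice it was above every WT mouse of the strain. The exception was the first TG mouse of 129, the mouse with high neutrophil markers, at 10.35 against 10.52 in its WT mouse. The share of all genes with 16 of 17 was not counted, and a single WT mouse can lie outside its TG mice by chance. Over all strains the difference was 0.494 ± 0.090 log2, or 1.41-fold (limma adjusted p = 0.00026, exact permutation p = 0.00065). AKR/J had Mmp11 at 9.87 in WT and 10.91, 10.91 and 10.62 in TG mice (0.946 ± 0.177, limma adjusted p = 0.0085). BALB/cJ had 10.03 against 10.83, 10.77 and 10.64 (0.720 ± 0.177, adjusted p = 0.043), and C57BL/6J 10.27 and 10.09 against 10.89 and 10.78 (0.654 ± 0.153, adjusted p = 0.0085). A/J (0.280), 129 (0.159) and C3H (0.151) did not pass. TG levels of Mmp11 hardly parted the strains, with means from 10.581 in C3H to 10.836 in A/J (limma F test over 6 strains, adjusted p = 0.43), and the 3 strains with the largest effects were the 3 with the lowest WT means. With 1 WT mouse in 5 strains, that mouse's own spread and the strain's level cannot be told apart. The BALB/cJ call of Mmp11 was lost in 13 of 30 alternative settings (0.680 to 0.772, highest adjusted p = 0.12), and the C57BL/6J call without its second WT or its first TG mouse (highest adjusted p = 0.094).

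Adamts4, aggrecanase 1, cuts the proteoglycans aggrecan, brevican and versican. It had 7.72 and 7.50 in the WT and 9.26 and 8.87 in the TG mice of C57BL/6J, the highest TG values of any strain. A/J had 7.19 in WT and 7.92, 7.75 and 8.06 in TG mice, and 129 had 7.003 against 7.65, 7.58 and 7.50. In both strains the single WT mouse lay under all TG mice, by less than in C57BL/6J. C3H (7.28, 7.55 and 7.61 against 7.26 in WT) and BALB/cJ (7.45, 7.33 and 7.21 against 7.16) showed small differences, and AKR/J TG mice (7.23, 7.36 and 7.16 against 7.36) lay at or under their WT mouse within rounding. The difference over all strains was 0.555 ± 0.129 log2 (1.47-fold, limma adjusted p = 0.0025, exact permutation p = 0.0018), and 0.316 without C57BL/6J (adjusted p = 0.018). In C57BL/6J it was 1.454 ± 0.139, or 2.74-fold (limma adjusted p = 6.9e-06), in A/J 0.719 ± 0.160 (adjusted p = 0.0055), in 129 0.576 (adjusted p = 0.062) and in AKR/J -0.109 (adjusted p = 0.86). The mean of Adamts4 over the 24 arrays was above that of 38.3% of genes. Its TG means in AKR/J, BALB/cJ, C3H and 129 (7.25 to 7.58) lay under the array medians, so signal over background may limit small differences there.

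Adamts4 was the single member of 9 for which the test of dependence of the TG effect on strain passed (limma F test, adjusted p = 0.0081, 1.34% of all genes called). The 6 effects spanned 1.56 log2 between C57BL/6J and AKR/J. In the order of effects, C57BL/6J came first and A/J next (A/J minus C57BL/6J, -0.735 ± 0.212, unadjusted p = 0.003, adjusted p = 0.068 over 90 comparisons of neighbouring strains, limma), and no lower neighbours in that order differed beyond their spread. Farther apart in that order, the effect in A/J exceeded that in AKR/J by 0.828 ± 0.226 (limma, unadjusted p = 0.002). In TG level, C57BL/6J (mean 9.063) exceeded A/J (7.909, adjusted p = 6.5e-06 over the 90). A/J exceeded 129 (7.578) at an unadjusted p of 0.0097 and an adjusted p of 0.17. For Mmp19 the TG effects spanned 1.724 log2 and for Mmp11 0.796. The limma F test of dependence on strain passed for neither (unadjusted p = 0.02 and 0.022, adjusted p = 0.23 and 0.24).

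**Figure D2:**
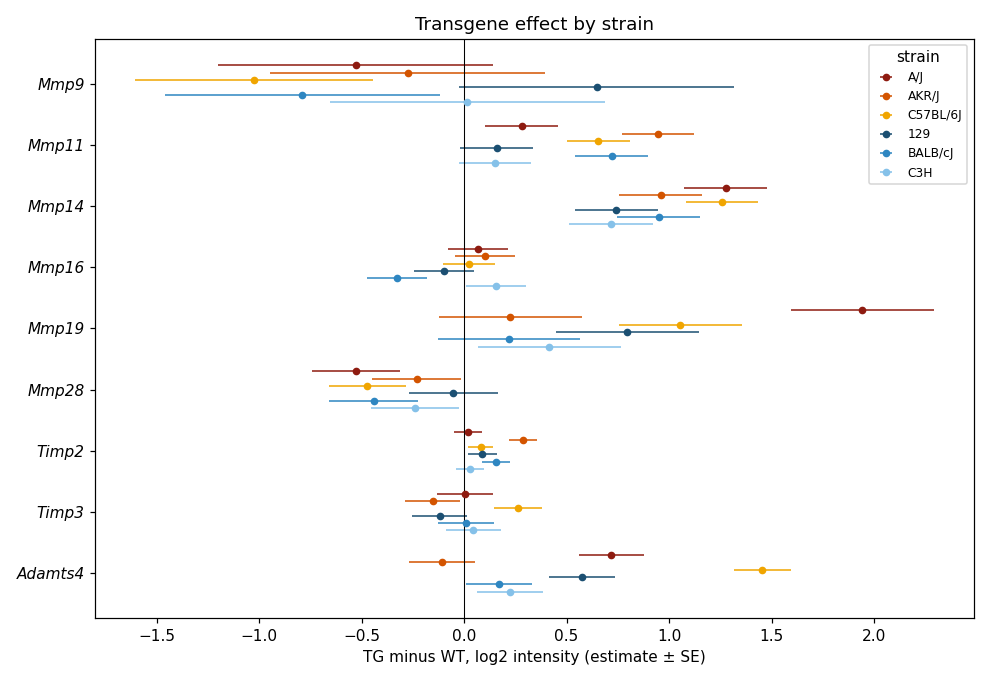
TG minus WT difference of each of the 9 genes in each strain, as log2 intensity (x axis), with points at limma estimates and bars of ±1 SE, prone strains in warm and resistant strains in blue colours. Mmp14 is right of 0 in all 6 strains, the effects of Mmp19 run from 0.219 in BALB/cJ to 1.943 in A/J, and those of Adamts4 from -0.109 in AKR/J to 1.454 in C57BL/6J.

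Mmp28, epilysin, is a secreted protease of epithelia and of macrophages. It was the member that fell. WT mice ran from 8.57 to 9.47 with a median of 9.15 and TG mice from 8.35 to 9.19 with a median of 8.66, and 15 of 17 TG mice were below every WT mouse of their strain. C57BL/6J had 9.36 and 9.27 in WT against 8.79 and 8.90 in TG mice, A/J 9.15 against 8.60, 8.82 and 8.45, and BALB/cJ 9.47 against 8.92, 8.98 and 9.19. In these strains, and in C3H, the genotypes did not overlap, whereas 129 (8.57 against 8.61, 8.55 and 8.38) and AKR/J (9.02 against 8.84, 8.35 and 9.18) overlapped. Save for C57BL/6J, each strain had a single WT mouse, which can lie outside its TG mice by chance. Over all strains Mmp28 fell by 0.336 ± 0.084 on the log2 scale (1.26-fold lower, limma adjusted p = 0.0047, exact permutation p = 0.0033), and in no single strain did it pass (lowest adjusted p = 0.11, in C57BL/6J). Of the 6 airway club and secretory cell markers measured, 4 fell beside it (13.5% of all genes). Scgb3a1 (-0.314) and Bpifb1 (0.503, opposite in sign) did not pass (limma adjusted p = 0.19 and 0.17). The summed level of the 6 was 14.90 to 15.32 in TG and 15.36 to 15.69 in WT mice, and their part in the Mmp28 value was not tested.

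Mmp9, gelatinase B, is stored in neutrophil granules and also made by macrophages. WT mice ran from 8.27 to 8.87 with a median of 8.49. TG mice ran from 7.50 to 10.99 with a median of 7.96, and 14 of 17 were below every WT mouse of their strain. The 129 TG mice had 10.99, 8.19 and 8.33 against 8.53 in WT, so the gap between the first and the other two was larger than the range of all other mice. C57BL/6J TG mice had 7.91 and 7.56 against 8.65 and 8.87, BALB/cJ TG mice 7.82, 7.67 and 7.62 against 8.49, and A/J TG mice 7.64, 7.50 and 8.16 against 8.29. In these strains the genotypes did not overlap, and in C3H (8.52, 8.10 and 8.22 against 8.27) and AKR/J (8.38, 7.96 and 7.94 against 8.37) they did. All but C57BL/6J had a single WT mouse here too, so lack of overlap can arise by chance.

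With all mice, Mmp9 was not called over all strains (-0.363 ± 0.264 log2, limma adjusted p = 0.35, exact permutation p = 0.23). Without the first 129 TG mouse it was lower in TG mice, with a difference of -0.511 ± 0.114 (limma adjusted p = 0.0021, exact permutation p = 0.0017), and without the strain 129 the difference was -0.552 ± 0.127 (adjusted p = 0.0037). The other comparisons share 1 estimate of the spread with that mouse's group. Without it the C57BL/6J difference, -1.024 either way, went from an adjusted p of 0.29 to 0.0026, and that of the prone strains, -0.610, from 0.28 to 0.0022. In the resistant strains the difference was -0.043 (adjusted p = 0.96) with that mouse and -0.346 (0.12) without it, and within 129 it was 0.646 (0.7) and -0.265 (0.65). Neither the dependence on strain (adjusted p = 0.81 with and 0.3 without it) nor the prone minus resistant difference of effects (-0.567 and -0.263, adjusted p = 0.78 and 0.68) passed. Mmp9 in TG mice of prone minus resistant strains was -0.523 and -0.219 (adjusted p = 0.29 and 0.2), and by emphysema label -0.831 and -0.375 (adjusted p = 0.16 and 0.08). In that mouse S100a8, which encodes a calcium-binding protein of neutrophils, was at 10.96 (6.19 to 7.90 in the other mice), S100a9 at 11.40 (6.84 to 8.16) and Retnlg at 11.42 (6.90 to 8.90). Of the genes of neutrophil precursors, Mpo was at 7.27 (6.55 to 7.04) and Elane at 7.14, inside the range of the others (6.66 to 7.29). Over all 24 mice, which share strain and genotype groups, the correlation with Mmp9 was 0.90 for Retnlg, 0.89 for S100a9, 0.84 for S100a8, 0.79 for Cxcr2 and 0.69 for Csf3r. Over the other 23 mice it was 0.69 for Retnlg, 0.57 for Cxcr2, 0.55 for S100a9 and Csf3r and 0.33 for S100a8. Mpo and Elane did not follow Mmp9 in this way, with 0.45 and 0.13 over all 24 mice and -0.25 and -0.14 over the 23. None of the 7 measured neutrophil markers of 12 listed was called in TG against WT mice by limma with all mice included. Unlike Mmp9, these markers were not tested again without the first 129 TG mouse. The part of neutrophils in the Mmp9 values was not tested.

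**Figure D3:**
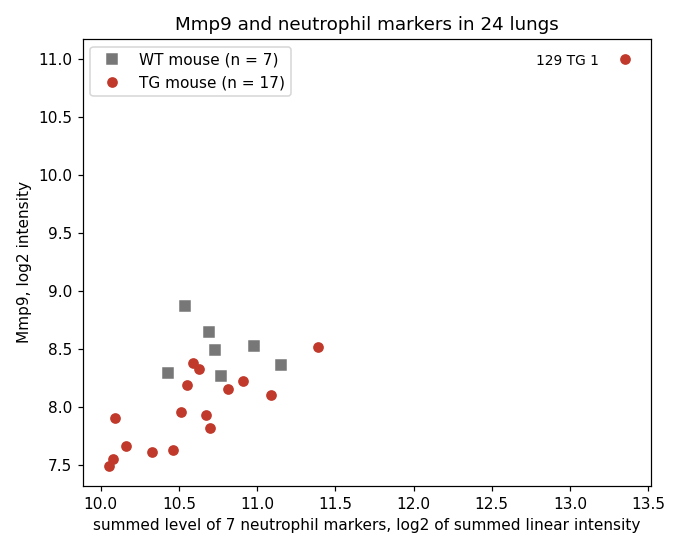
Log2 intensity of Mmp9 (y axis) against the log2 of the summed linear intensity of 7 neutrophil markers (x axis) in 24 mice, WT as grey squares and TG as red circles. The first TG mouse of 129 is at 13.35 and 10.99, and the other mice lie between 10.05 and 11.39 on the x axis and between 7.50 and 8.87 on the y axis.

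Mmp16, a membrane-anchored relative of MMP14, did not pass in any comparison. It ran from 6.59 to 7.07 in TG and from 6.66 to 7.18 in WT mice, and the groups overlapped (-0.011 ± 0.062 log2, limma adjusted p = 0.92). Its mean was above that of 26.3% of genes, and array lower quartiles were 6.243 to 6.349, so signal over background limits what could be seen of this gene.

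Both measured TIMP genes moved little. Timp2, which inhibits most MMPs and also binds MMP14 at the cell surface to recruit the precursor of MMP2, ran from 12.19 to 12.45 in WT and from 12.25 to 12.63 in TG mice. In 16 of 17 TG mice it was above every WT mouse of the strain. The exception was a C3H mouse at 12.42 against 12.44. Here too the share of all genes with 16 of 17 was not counted, and single WT mice can lie apart by chance. The rise was 0.108 ± 0.031 log2, or 1.08-fold (limma adjusted p = 0.012, exact permutation p = 0.00049). The largest effect was in AKR/J, with TG mice at 12.63, 12.56 and 12.52 against 12.28 (0.286 ± 0.069, limma adjusted p = 0.041), and without its WT mouse the rise over all strains was 0.075 (adjusted p = 0.063). It was also lost without the strain AKR/J (0.075, adjusted p = 0.065) or BALB/cJ (0.100, adjusted p = 0.055), and the AKR/J call itself was lost in 12 of 30 alternative settings.

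Timp3, the TIMP bound to the matrix, which also inhibits ADAMTS and ADAM proteases, did not change over all strains beyond its spread (0.021 ± 0.057 log2, limma adjusted p = 0.83). It ran from 12.89 to 13.41 in TG and from 13.06 to 13.47 in WT mice, whose highest member was the AKR/J mouse, at 13.47 with the next at 13.22. AKR/J TG mice were at 13.30, 13.36 and 13.29, and the strain's level and the WT mouse's own spread cannot be told apart. Without the AKR/J WT mouse the difference over all strains was 0.054 ± 0.061 (limma adjusted p = 0.57). C57BL/6J TG mice had 13.41 and 13.25 against 13.08 and 13.06 in WT, without overlap, but the difference did not pass (0.262 ± 0.118, adjusted p = 0.16). Reck, a membrane-anchored inhibitor of MMPs and the single other inhibitor measured of 3 listed, fell by 0.440 ± 0.063 on the log2 scale (limma adjusted p = 1.8e-05). Its levels were 10.04 to 10.82 in TG and 10.79 to 11.15 in WT mice.

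Averaged over strains of each kind, 5 members rose and 1 fell in the prone strains (23.5% of all genes called) and 3 rose in the resistant strains (10.7% of genes). Mmp14 rose by 1.165 ± 0.112 in the prone and 0.803 ± 0.117 log2 in the resistant strains (limma adjusted p = 1.7e-06 and 0.00031). Adamts4 rose by 0.688 ± 0.088 and 0.323 ± 0.092 (adjusted p = 2.8e-05 and 0.033), and Mmp11 by 0.627 ± 0.098 and 0.343 ± 0.102 (adjusted p = 0.00017 and 0.04). Mmp19 (1.074 ± 0.192, adjusted p = 0.00055), Timp2 (0.129 ± 0.038, adjusted p = 0.02) and Mmp28 (-0.411 ± 0.120, adjusted p = 0.019) passed in the prone strains, with values of 0.477, 0.090 and -0.245 in the resistant ones that did not. The difference between the sets was tested directly and passed for 0 of 9 members (limma, 0.474% of genes), with 3 at an unadjusted p under 0.05, namely Mmp14 (0.362 ± 0.162, adjusted p = 0.4), Mmp19 (0.597 ± 0.278, adjusted p = 0.42) and Adamts4 (0.365 ± 0.128, adjusted p = 0.24). For Adamts4 that difference was 0.764 without AKR/J (adjusted p = 0.015) and -0.018 without C57BL/6J. For Mmp19 it was 0.162 without A/J. The resistant-strain call of Mmp11 was lost in 7 of 28 settings and that of Adamts4 in 3, each when a TG mouse was left out or the replicate number was added as a block, and the prone call of Timp2 without the first C57BL/6J TG mouse (adjusted p = 0.056).

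Within single strains, limma called 3 members in A/J (Mmp14, Mmp19 and Adamts4, 14.9% of genes), 4 in C57BL/6J (the same and Mmp11, 14.3%), 3 in AKR/J (Mmp14, Mmp11 and Timp2, 2.11%) and 2 in BALB/cJ (Mmp14 and Mmp11, 2.26%), each higher in TG mice. In 129 (2.95% of genes) and C3H (0.822%) 0 were called, with Mmp14, Mmp19 and Adamts4 at an unadjusted p under 0.05 in 129 and Mmp14 in C3H.

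TG mice of the prone and resistant strains, compared with each other, differed in Mmp14 (0.341 ± 0.086 log2, limma adjusted p = 0.016) and Adamts4 (0.613 ± 0.068, adjusted p = 3.1e-05), both higher in prone strains, where 11.1% of genes were called. Mmp14 ran from 10.01 to 11.48 in the 8 prone and from 10.27 to 10.87 in the 9 resistant TG mice. Adamts4 ran from 7.16 to 9.26 and from 7.21 to 7.65. Both prone ranges enclosed the resistant one, with AKR/J mice at their low end and A/J and C57BL/6J mice at their high end. Without C57BL/6J the difference of Adamts4 was 0.119 (adjusted p = 0.26) and that of Mmp14 0.153 (0.3), without A/J that of Mmp14 was 0.196 (0.31), without C3H 0.315 (0.059), without AKR/J 0.675, and without the first C57BL/6J TG mouse 0.275 (0.082). With strain means as the unit, 3 against 3, neither passed (adjusted p = 1). Mmp19 (0.420 ± 0.148, adjusted p = 0.082) did not pass, and was 0.817 without AKR/J (adjusted p = 0.0038) and -0.020 without A/J.

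WT mice of the prone and resistant strains differed in 0 of 9 members (limma, 0.741% of genes called), with Mmp16 (-0.280 ± 0.099) and Adamts4 (0.247 ± 0.108) at unadjusted p-values of 0.012 and 0.036. Among the 6 strains, TG levels of Adamts4, Mmp14, Mmp19 and Timp2 differed (limma F test, adjusted p = 6.8e-07, 0.00033, 0.00057 and 0.011, 31.4% of genes). In the order of Mmp14 levels C57BL/6J (11.281) and A/J (11.194) did not differ beyond their spread, A/J exceeded 129 (10.621; adjusted p = 0.043 over the 90 neighbour comparisons), and 129, BALB/cJ (10.558), C3H (10.509) and AKR/J (10.237) followed with no neighbours apart. Mmp19 was highest in A/J (10.629), above C57BL/6J (9.667) at an unadjusted p of 0.0028 and an adjusted p of 0.068, and the rest followed down to BALB/cJ (8.928) with no neighbours apart. Timp2 fell in order from AKR/J (12.568) to C57BL/6J (12.286), again with no neighbours apart. In Mmp9, whose order started at 129 (9.172), the strain difference did not pass with all mice (adjusted p = 0.12) and passed without the first (0.029) or the second (0.039) TG mouse of 129.

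By the emphysema label, TG mice of AKR/J and BALB/cJ had lower Mmp19 than those of 129 and C3H (-0.591 ± 0.174 log2, limma adjusted p = 0.049), the only call among the 9 members where 7.15% of genes were called. The ranges were 8.74 to 9.31 and 9.01 to 9.89 and overlapped. The call was lost in 18 of 31 alternative settings (-0.688 to -0.469, highest adjusted p = 0.13). Mmp28 was higher in the emphysema-labelled strains by 0.366 ± 0.109 (adjusted p = 0.051), and passed in 7 of 31 settings. Label and strain cannot be told apart, since each label covers a pair of strains.

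Other genes of the system were counted from lists chosen by family. Over all genes, 13.2% rose and 13.5% fell in the same limma test, which is the share to set beside each count. Of 17 other MMP genes 3 were measured, and Mmp23 rose (0.431 ± 0.044 log2, limma adjusted p = 3.6e-07) while Mmp24 (-0.017) and Mmp25 (0.139) did not pass. The others, with Timp1 and Timp4, were not analysed here. Of 15 measured ADAMTS and ADAMTS-like genes (24 listed) 3 rose and 5 fell. Adamtsl2, which encodes a microfibril-associated protein without protease activity, rose by 0.940 ± 0.131, Adamts12 by 0.514 ± 0.104 and Adamts1 by 0.484 ± 0.108. Adamts5, aggrecanase 2, fell by 0.379 ± 0.070 (adjusted p = 0.0003), opposite in sign to Adamts4, and Adamtsl1 (-0.256), Adamtsl4 (-0.242) and Adamtsl5 (-0.235) were also lower, as was Adamts14 (-0.214), the remaining one of the 5, chosen after its value was seen. The median of these 15 was 0.006.

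Of 6 measured ADAM genes (11 listed), a related family in which some members shed cell-surface proteins, 4 rose and 1 fell (13.2% and 13.5% of all genes). Their median was 0.259. Adam23 (0.605), Adam19 (0.385), Adam15 (0.311) and Adam17 (0.207), the enzyme that releases TNF, were higher by limma and Adam33 (-0.301) was lower. Among activators and partners, 4 of 7 measured rose (14 listed) and 0 fell, and their median was 0.288. Lcn2, whose product binds MMP9, rose by 1.238 ± 0.085, Cd44, a hyaluronan receptor that can hold MMP9 at the cell surface, by 0.751 ± 0.076, the convertase gene Pcsk5 by 0.288 ± 0.073 and Bsg, a cell-surface inducer of MMPs, by 0.118 ± 0.030. Plau (-0.070) and Plg (0.005), of the plasmin system, did not pass. All 7 measured matrix substrates of 13 listed rose, with a median of 0.917. Tnc rose by 1.488 ± 0.134, Col1a1 by 1.020 ± 0.081, Col3a1 by 0.971 ± 0.056 and Vcan, which encodes the versican cut by ADAMTS4, by 0.917 ± 0.159.

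**Figure D4:**
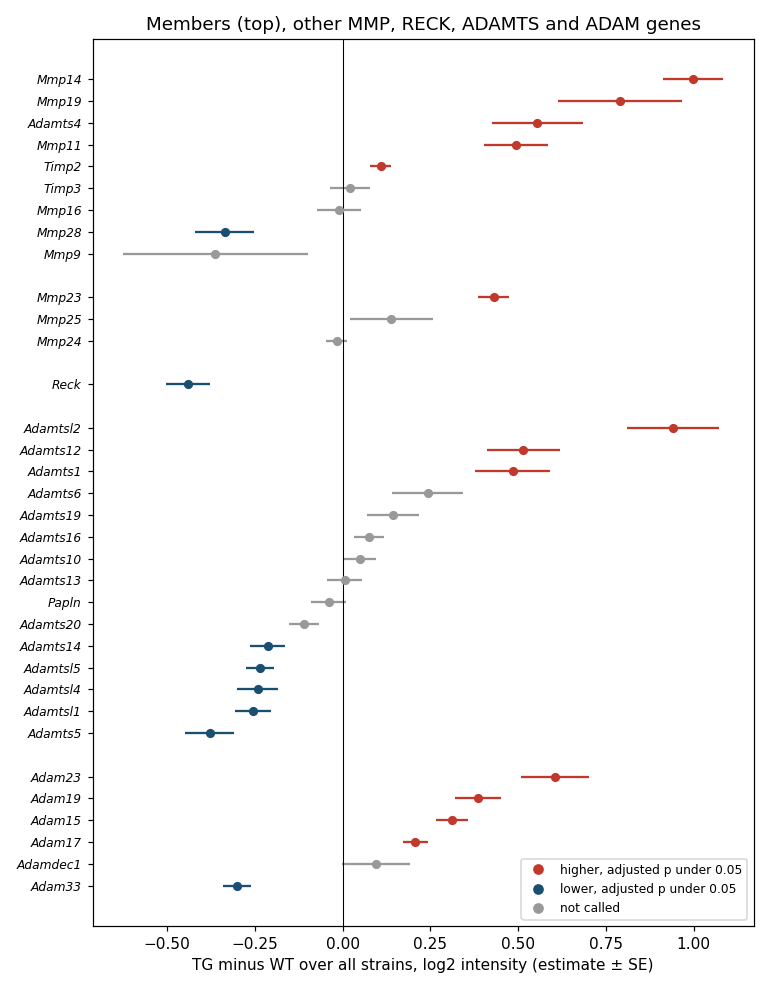
TG minus WT difference over all strains in log2 intensity (x axis; limma estimate ± SE, 17 TG and 7 WT mice) for the 9 genes at the top and the measured MMP, RECK, ADAMTS and ADAM genes below, coloured by whether the adjusted p is under 0.05. Mmp14 has the largest value at 0.999, followed by Adamtsl2 at 0.940, and Reck the lowest at -0.440.

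The genes most like each member across the 24 arrays are given as a description, since the arrays share genotype and strain groups. For Mmp14 these were the collagen gene Col3a1 and the chemokine gene Cxcl16 (Pearson r = 0.95 for both). Deviations from the 12 group means gave 0.50 and 0.55. Mmp11 was most like Ddr1, a collagen receptor gene, and Sh3rf3 (0.88 for both, 0.80 and 0.69 for deviations), and Mmp19 like Csf2rb, a receptor subunit for GM-CSF (0.91, and 0.79 without A/J TG mice 1 and 2), and Polr1c (0.90). Csf2rb was 9.66 to 11.12 in TG and 9.47 to 9.92 in WT mice. Adamts4 was most like Lama1, a laminin chain gene (0.92, and 0.87 without both C57BL/6J TG mice), and Shc4 (0.91 and 0.66). Lama1 was at 9.72 and 9.18 in the C57BL/6J TG mice and had a median of 7.64 over all TG mice. Mmp9 was most like Retnlg and Ly6g, both neutrophil genes (0.90, and 0.65 and 0.55 without 129 TG mouse 1 and A/J TG mouse 2). Timp2 was most like Prep (0.88) and Kif1c (0.87), Mmp28 like Zfp641 (0.80) and Ttc28 (0.78), and Mmp16 and Timp3 had no gene above 0.66.

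Among the members themselves, Mmp14 went with Mmp19 and with Mmp11 (0.78 for both, 0.43 and 0.70 for deviations from group means) and with Adamts4 (0.71, deviations 0.42). Mmp19 and Adamts4, each highest in another strain, had 0.47, and -0.12 for deviations. Mmp11 and Timp2 had 0.63 and 0.64. Mmp9 and Mmp11 had -0.49, and -0.70 for deviations, and the 129 mouse with the highest Mmp9 had the lowest Mmp11 of the TG mice. Without it these were -0.65 and -0.21.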

How the data were processed

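Right lung lobes of 24 mice were profiled on whole-transcript arrays. Per the labels' protocols, lungs were homogenised fresh in a phenol reagent, RNA was purified on Qiagen columns, and an Ambion WT Expression kit gave biotin-labelled target. The authors deposited log2 intensities per probe set, read as log2 from their range of 3.41 to 14.75, since the sources used here do not give the log base, summarisation, normalisation or build. Of 25285 probe sets, 25284 were complete, 14539 had 1 gene symbol, 781 several and 9964 none here. The probe set of highest mean stood for a gene, which left 13499 genes, and the 9 members matched RefSeq by Entrez identifier.

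TG against WT over all strains was fitted as strain plus genotype, with 17 residual degrees of freedom. Contrasts of 12 group means (12 residual degrees) gave everything else, on the assumption that a single WT mouse varies as mice of the other groups do. Tests used limma 3.58.1 in R 4.3.3, two-sided, with Benjamini-Hochberg adjustment over all genes and a threshold of 0.05, and were checked on simulated data. Tables and plots used Python 3.11.15, pandas 2.3.3 and matplotlib 3.10.9. The number of arrays limits the precision, and the median residual SD was 0.104.

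All members are described. From each list of family members, activators and substrates, up to 4 called genes of largest change each way are named, with 2 genes of highest correlation per member. Uncalled genes and markers of other cells were named after their values were seen. Some Mmp9 values without 1 mouse (permutation, correlation) were added after seeing the data. The members and lists were chosen with earlier results of these data known. Alternatives were other scalings, priors, weights, filters, a replicate block, and each mouse or strain left out. Replicate numbers showed no sign of pairing TG mice of different strains. Deviations of 40 same-number pairs correlated at -0.15 to 0.13 (median -0.02), and those of 80 other-number pairs at -0.18 to 0.23 (median 0.00). RefSeq places another gene over Timp3 (Syn3), Timp2 (Cep295nl), Mmp19 (Tmem198b), Mmp28 (1700020L24Rik and Gm51913) and Mmp16 (Gm11860). A further overlap is not reported here. Signal from overlapping genes, like strain variants under a probe, was not tested.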

Additional observations from a re-analysis of the deposited data

Results flagged for a closer look

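Gaps between the highest or lowest mouse and the next were checked 27 times (9 genes in WT, prone TG and resistant TG mice), where chance alone passes about 1 in 20 groups. In the 9 resistant TG mice, the first TG mouse of 129 had Mmp9 at 10.99 and the next highest mouse 8.52, a gap of 0.73 of the whole range (critical value 0.493). Among the 7 WT mice, the AKR/J mouse had Timp3 at 13.47 and the next 13.22, a gap of 0.60 of the range (critical value 0.568). These WT mice are of 6 strains, and TG mice of AKR/J had 13.29 to 13.36. The TG effect on Adamts4 differed between strains by the test of that difference, with effects spanning 1.56 log2 from AKR/J to C57BL/6J (limma F test, adjusted p = 0.0081, and 0.037 at most with another setting or a mouse left out).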

How the results depend on the processing

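Over all strains, 5 to 7 members were called under each alternative (6 in the report), and no called member changed direction in any comparison. Of the members' values under alternatives, 4038 kept their side of the threshold, 39 gained a call and 72 lost it. Leaving out a mouse gave 0 to 1 members called in 129 (0 with all mice), 1 to 3 in AKR/J, 0 to 2 in BALB/cJ, 2 to 5 in C57BL/6J, 1 to 3 in the resistant strains, 1 to 3 between prone and resistant TG mice and 0 to 2 by emphysema label. In 129, quantile normalization gave 1 and array weights 2. By emphysema label (1 in the report), an intensity trend with robust prior gave 0, array weights 2 and genes above the lower quartile 2. Between prone and resistant TG mice (2 in the report), leaving out C3H gave 1, leaving out C57BL/6J 0, and strain means as the unit 0, where limma called 0 of all genes against 1503 with mice as the unit. For the difference of effects, leaving out AKR/J gave 1 member and 363 genes, against 0 and 64. The cause of these changes was not tested. Replicate numbers are shared by number alone, and a replicate block gave 1 member in 129, 1 in BALB/cJ, 6 over all strains, and 14 genes in place of 64 for the difference of effects. The number of arrays, with 1 WT mouse in 5 strains, limits the values within a strain.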
